A study of Homo sapiens with 6 samples.

Results

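The genes described here were those of glycolysis and of the cellular response to low oxygen, 34 named genes in all. All array probes annotated to a listed gene, by its current symbol or an older alias of the same Entrez identifier, were taken, and the probe with the highest mean log2 intensity over the arrays stood for the gene. Of the 34 genes, 32 had a named probe, and 30 of these passed the filter on dim probes and were tested, against 12481 named genes tested out of 18665 named genes on the whole array. SLC16A3 and CA9 had no named probe in the annotation used here. EGLN3 and KDM3A had a probe but were too dim to be tested.

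RNA was profiled in KY170R cells, a radioresistant clone obtained from KY170 cells by continued fractionated irradiation, and in the parental KY170 cells (kyse170 in the labels), a radiosensitive human esophageal squamous cancer line. Both lines were grown in high glucose medium, and arrays were labelled 0, 8 and 24 h of radiation, with irradiation by a linear accelerator. There was 1 array for each line and time point, 6 arrays in all, each an Illumina Human-6 V3 bead array. The sources used here do not give the dose. They place the first arrays at 0 h after irradiation but the first RT-PCR samples before it, so whether the 0 h cells had been irradiated is not settled. Nor do they say whether each column of values pools repeats of a profiling that the methods place in triplicate. Unirradiated cells at 8 and 24 h were not analysed here, so a difference over time cannot be assigned to irradiation, to time in culture or to handling. KY170R is described as 1 clone, so that what separates it from KY170 cannot be told apart from what separates 1 clone from its parent.

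Glycolysis turns glucose into pyruvate in the cytosol, and tumor cells often run it fast and reduce much of the pyruvate to lactate. Hypoxia-inducible factor (HIF) is a transcription factor whose alpha subunit is hydroxylated by the EGLN enzymes when oxygen is present and then degraded. When it escapes this control it binds short DNA motifs near genes for glucose transporters, glycolytic enzymes, angiogenic factors and mitophagy proteins, and raises their transcription.

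The deposited intensities had already been background-subtracted and normalized between arrays. The 99th percentile of the sizes of the values below 0 was 13.75 and served as a background limit. The 0 h arrays stood apart. Pearson's r across probes, a description since probes are no replicates, was 0.870 to 0.903 between the 0 h array and a later array of 1 line, 0.933 to 0.937 between its 8 and 24 h arrays, and 0.935 to 0.953 between the lines at 1 time. Of 10 squamous epithelial marker genes, 7 had a named probe and 6 of these exceeded the background limit on all 6 arrays. Of 8 fibroblast markers 1 did so (COL1A1) and 6 exceeded it on no array, of 6 endothelial markers 1 did so (PECAM1) and 3 on none, and of 7 immune markers with a probe 2 did so (CD14 and CD68) and 3 on none. The summed intensity of the immune markers was 1112 to 1225 on the 0 h arrays, 694 to 1001 at 8 h and 405 to 646 at 24 h. Nearly all of it came from CD68, a lysosomal protein, at 1121 in KY170R and 1042 in KY170 at 0 h and 570 in KY170R and 328 in KY170 at 24 h, while PTPRC, CD3E and CD3D exceeded the background limit on no array. That of the endothelial markers was 109 to 233, 55.4 to 82.6 and 35.7 to 69.3 at the same times. The squamous markers summed to between 11500 and 23580 in KY170R and between 24870 and 28780 in KY170. Much of the KY170R sum came from EPCAM and CDH1, which are not particular to squamous cells. EPCAM had 6678 at 0 h and 13890 at 24 h in KY170R, and CDH1 had 2764 and 7588. KRT13 had 1377, 574 and 1295 in KY170R and 13650, 7498 and 7391 in KY170 at 0, 8 and 24 h. The markers did not differ in 1 direction: KRT5 was also lower in KY170R at each time, and KRT14 and DSG3 were higher. The part of these shifts in the differences below was not tested.

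The first question was whether the radioresistant line differed from its parent. None of the 30 members was called between KY170R and KY170, against 1.82% of the 24401 probes tested, with 0.820% called lower (limma with a trended and robust prior, time point and line as terms, Benjamini-Hochberg adjusted p under 0.05 over all tested probes). At an unadjusted p under 0.05 there were 4 of the 30 members, PFKM, TPI1, LDHB and BNIP3, all with lower means in KY170R. Of the 24401 tested probes 3308 had such a p, a similar share. With 1 prior variance for all probes 0 members and 1 of all tested probes were called. At that setting 1 member had an unadjusted p under 0.05, as had 2325 of all tested probes. The t-test that the methods name gave 0 members after adjustment. The median member difference was -0.10 on the log2 scale, against 0.00 over all tested probes, and single members ranged from -0.81 for LDHB to 0.75 for NDRG1. Since RNA was measured in bulk, fewer cells with a transcript and less transcript per cell cannot be told apart here or below. Nothing in the labels says that the arrays came from separate cultures. Each p-value therefore reflects only how much these 6 arrays departed from the fit, together with the prior. That spread may be technical. In the line and time comparisons it also holds any real difference between the lines that changes with time.

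LDHB encodes the lactate dehydrogenase subunit that prevails in oxidative tissues such as the heart. Its intensity was 668, 1145 and 1475 in KY170R and 1560, 1706 and 2265 in KY170 at 0, 8 and 24 h. All 3 KY170R values lay below all 3 KY170 values, a separation in the lower direction that 2 of 30 members showed, against 3.29% of all tested probes. The mean difference was -0.81 ± 0.36 on the log2 scale (SD over 3 pairs of arrays), with an adjusted p of 0.0577 by limma. TPI1, which interconverts the triose phosphates, was the other separated gene, with 26138, 22073 and 20820 in KY170R and 31136, 26438 and 26140 in KY170. Its difference was small, -0.28 ± 0.04 (SD over 3 pairs, adjusted p = 0.193), and its second probe differed by -0.34 (adjusted p = 0.148). In the higher direction 0 of 30 members separated, against 3.20% of probes. Lower in all 3 pairs were 8 members, against 17.0% of probes, and higher in all 3 were 4, against 17.1%.

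**Figure D1:**
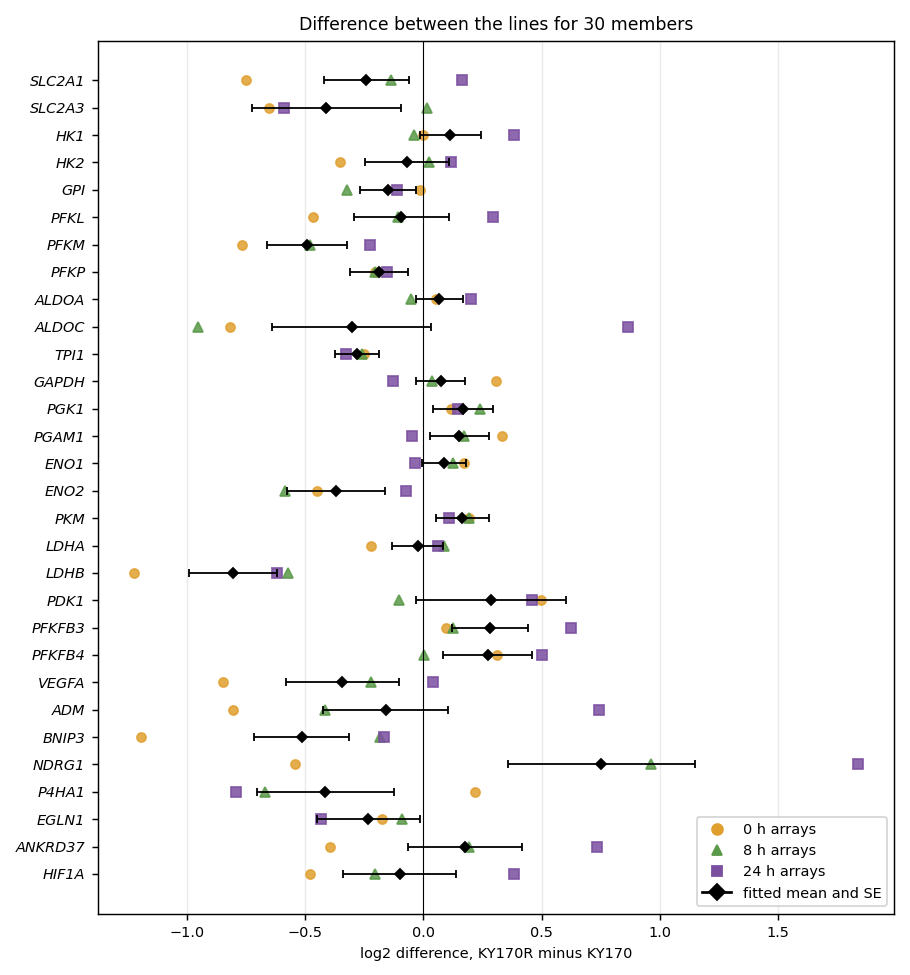
The horizontal axis gives the log2 difference of KY170R minus KY170 for the 30 tested members, 1 gene per row, with 1 coloured point for each pair of arrays (0, 8 and 24 h) and a black diamond with a bar for the fitted mean and its SE. The pairs of a gene often lie on both sides of 0, and LDHB has its 3 pairs at -1.22, -0.57 and -0.62.

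How a member stood between the lines varied with the time of the arrays. The median member difference was -0.24 at 0 h, -0.10 at 8 h and 0.09 at 24 h. At 0 h, 8 of 30 members were at least 1.5-fold lower in KY170R and 0 at least 1.5-fold higher, against 21.4 and 22.9% of all tested probes. At 24 h, 3 were lower and 5 higher by that size, against 20.6 and 20.1% of probes. NDRG1, a hypoxia- and stress-responsive gene, had the widest spread: its differences were -0.54, 0.96 and 1.84 at 0, 8 and 24 h. ALDOC, the brain-type aldolase, had -0.82, -0.96 and 0.86, and ADM, the vasodilator peptide adrenomedullin, had -0.81, -0.42 and 0.74. Without the 24 h arrays 5 members were called lower in KY170R (PFKM, ALDOC, LDHB, ADM and BNIP3, with LDHB at -0.90 and an adjusted p of 0.00103), when 5.26% of all probes were called. Without the 0 h arrays 1 was called, NDRG1 at 1.40 (adjusted p = 0.0424), when 1.48% of all probes were called.

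Whether the 2 lines changed differently after 0 h was tested with the interaction of line and time, which takes the 8 and 24 h arrays of a line as repeats. None of the 24401 probes was called by limma (601 had an unadjusted p under 0.05), and 0 members had an unadjusted p under 0.05. With 1 prior variance 0 probes were called and 1213 had an unadjusted p under 0.05. The smallest adjusted p of any probe by limma was 0.999. Since the test pools 8 and 24 h, it cannot judge a difference between the lines at 1 of these times alone. The spread of single members between the lines in the values below was therefore not shown to be larger than the spread of the arrays.

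The arrays differed far more over time. At 8 h 15 of the 30 members were called against 0 h, 4 higher and 11 lower, when 29.1% of all tested probes were called, 15.2% higher and 13.9% lower. At 24 h 15 were called against 0 h, 8 higher and 7 lower, when 36.5% of probes were called, 19.2% higher and 17.4% lower. Most members are bright probes, which are called more often. Among the brightest 6100 of the tested probes, which hold 21 of the 30 members, 9 of 21 members were called at 8 h, against 47.9% of those probes, and 10 of 21 at 24 h, against 60.4%, so that the number of members called did not stand out from bright probes in general. Both 8 h values lay above both 0 h values in 5 of 30 members and below them in 13, against 30.4 and 28.8% of probes. Both 24 h values lay above both 0 h values in 10 and below them in 12, against 30.2 and 33.8% of probes. The median member difference was -0.25 at 8 h and -0.09 at 24 h, against 0.03 and -0.12 over all tested probes. Both comparisons share the 0 h arrays, and their calls rest on the trended prior. With 1 prior variance for all probes 0 members were called in either, as were 0 of all 24401 tested probes. With values raised to the background limit 3 were called at 8 h (PFKP, ENO2 and PFKFB4) and 7 at 24 h, when 10.7 and 16.2% of probes were called.

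**Figure D2:**
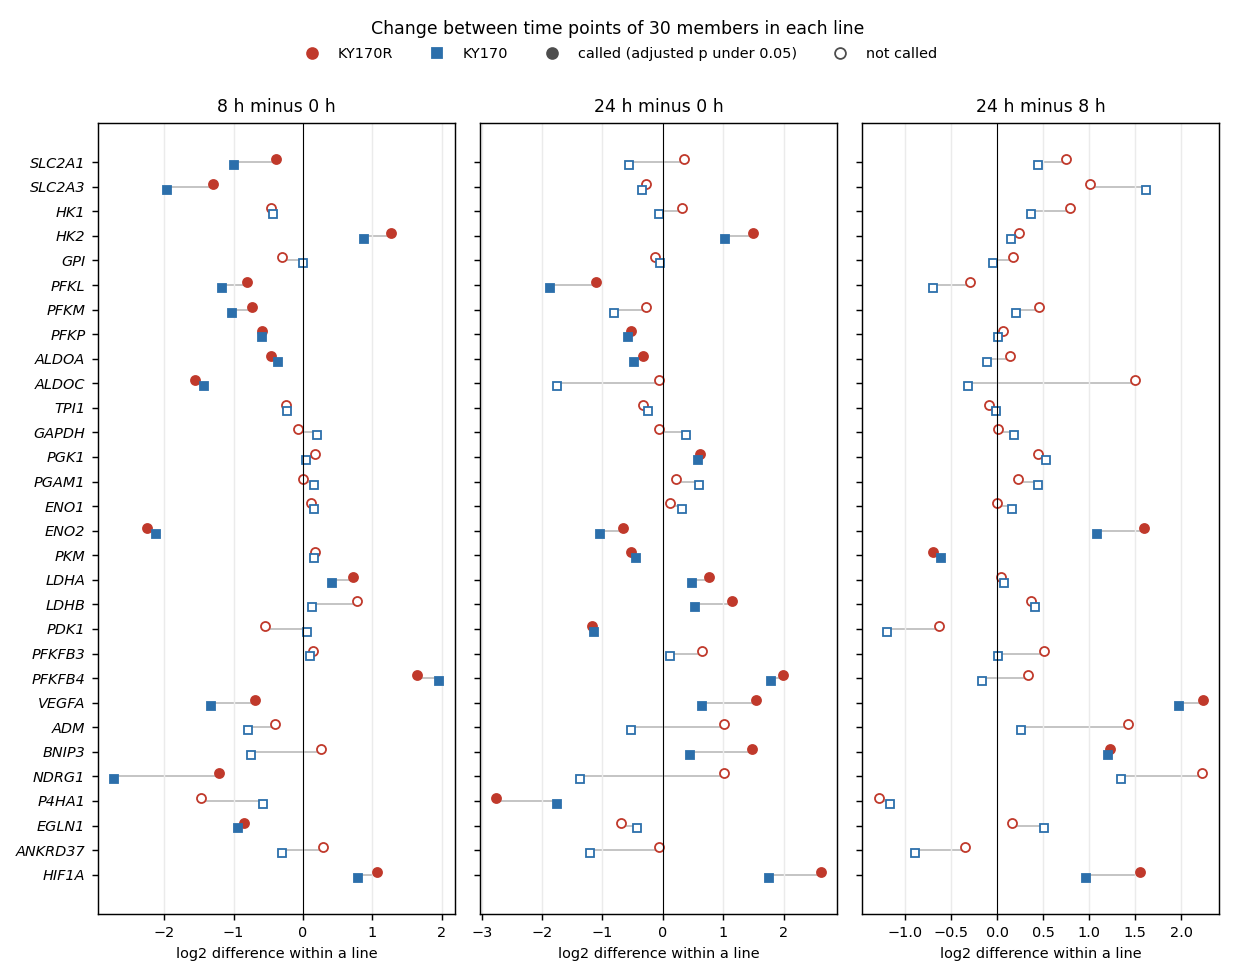
Horizontal axes give the log2 difference between times within each line for the 30 tested members, in 3 panels (8 h minus 0 h, 24 h minus 0 h, 24 h minus 8 h), with circles for KY170R, squares for KY170, and filled marks where the mean of both lines was called. Transporters and upper glycolytic enzymes lie mostly below 0 at 8 h, and HK2, LDHA, PFKFB4 and HIF1A lie above 0 at both times against 0 h.

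Glucose enters through the SLC2A facilitative transporters. SLC2A1, the widespread basal transporter GLUT1, had intensities of 3313, 2528 and 4238 in KY170R and 5569, 2783 and 3783 in KY170 at 0, 8 and 24 h. Both 8 h values lay below both 0 h values, and the gene fell at 8 h by 0.70 on the log2 scale (SE 0.22, adjusted p = 0.0358, lower in 2 of 2 lines). SLC2A3, the high-affinity GLUT3 of neurons and many tumors, was dim, with 72.4, 29.6 and 59.6 in KY170R and 113.9, 29.3 and 89.8 in KY170. It was 3.08-fold lower at 8 h than at 0 h (adjusted p = 0.00921). At 24 h neither was called, with differences of -0.10 for SLC2A1 and -0.31 for SLC2A3.

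The hexokinases phosphorylate glucose and so trap it in the cell. HK2, the isoform that many tumors induce, had 589.9, 1414 and 1668 in KY170R and 752.7, 1389 and 1540 in KY170. All 4 later values exceeded both 0 h values. HK2 rose by 1.07 at 8 h (SE 0.22, adjusted p = 0.00398) and by 1.27 at 24 h (adjusted p = 0.0013), higher in 2 of 2 lines each time. A second HK2 probe differed by 1.18 and 1.17 and was called at neither time (adjusted p = 0.164 and 0.142), and in KY170 it was lower at 8 h, at 50.2, than at 0 h, at 59.4. The ubiquitous isoform HK1 had 9957, 7202 and 12460 in KY170R and 9957, 7405 and 9563 in KY170. Its difference was -0.45 at 8 h (adjusted p = 0.0537) and 0.13 at 24 h (adjusted p = 0.554). GPI, which isomerizes the hexose phosphate, ranged only between 8039 and 10052 on the 6 arrays and was not called.

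Phosphofructokinase is the committed step, and all 3 of its subunit genes fell at 8 h. The liver-type subunit PFKL had 1119, 639.7 and 520.8 in KY170R and 1546, 690.1 and 424.1 in KY170, a decline at each step in both lines. It was 1.98-fold lower at 8 h (adjusted p = 0.012) and 2.80-fold lower at 24 h (adjusted p = 0.00112) than at 0 h. The platelet-type subunit PFKP had 7319, 4846 and 5068.5 in KY170R and 8437, 5586 and 5633 in KY170. It fell by 0.59 at 8 h (adjusted p = 0.0133) and 0.56 at 24 h (adjusted p = 0.0149), by nearly the same amount in both lines, and was still called when no filter on dim probes was applied. The muscle-type subunit PFKM had 1999.6, 1204.5 and 1652.5 in KY170R and 3409, 1681 and 1935 in KY170. It fell by 0.88 at 8 h (adjusted p = 0.00881), while its 24 h difference of -0.55 was not called (adjusted p = 0.06).

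Aldolase splits the hexose bisphosphate. ALDOA, the main form, had 26520, 19257 and 21226 in KY170R and 25587, 19949 and 18442 in KY170, and fell by 0.41 at 8 h (adjusted p = 0.0296) and 0.40 at 24 h (adjusted p = 0.0282). A second bright ALDOA probe differed by only -0.09 and 0.17 (adjusted p = 0.764 and 0.471), so the ALDOA call rests on 1 of its probes. ALDOC had 1502, 510.0 and 1440 in KY170R and 2653, 989.1 and 791.2 in KY170. It was 2.81-fold lower at 8 h than at 0 h (adjusted p = 0.0283), by -1.56 on the log2 scale in KY170R and -1.42 in KY170. At 24 h ALDOC was close to its 0 h level in KY170R, with a difference of -0.06, and still low in KY170, with -1.75, and the mean was not called (adjusted p = 0.128).

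**Figure D3:**
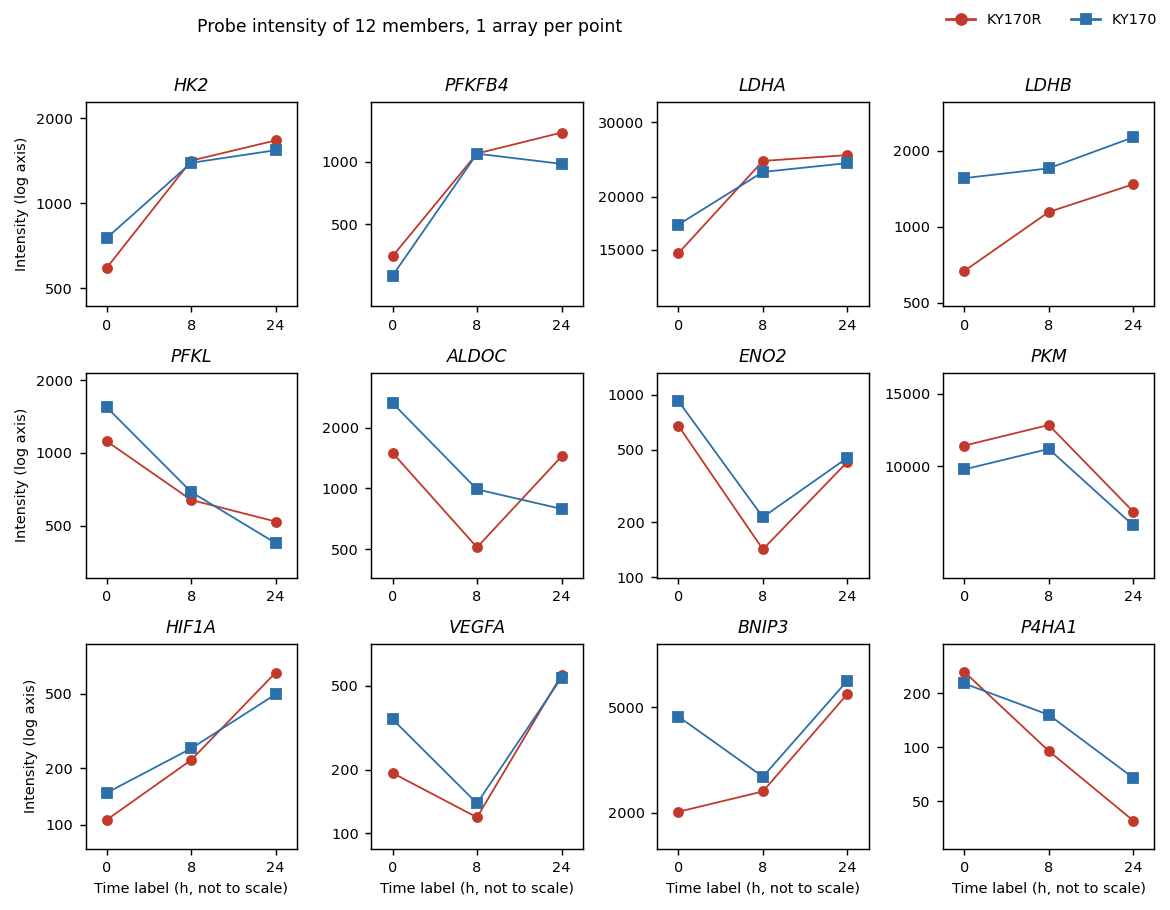
Deposited intensity on a logarithmic axis is drawn against the time label (0, 8 and 24 h, spacing not to scale) in 12 panels, 1 gene each, with circles for KY170R and squares for KY170 and 1 array per point. HIF1A and PFKFB4 lie above their 0 h values at both later times, while ENO2 and VEGFA have their lowest values at 8 h in both lines.

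In the upper pathway, from HK1 to ALDOC, 1 of 8 members was called higher and 5 lower at 8 h, and 1 higher and 3 lower at 24 h. In the lower pathway, which yields ATP, 0 of 7 were called higher and 1 lower at 8 h (ENO2), and 1 higher (PGK1) and 2 lower (ENO2 and PKM) at 24 h. Over all tested probes 15.2% were called higher and 13.9% lower at 8 h, and 19.2 and 17.4% at 24 h. For TPI1, GAPDH, PGAM1 and ENO1 no call was made at either time, and their 4 brightest probes differed from 0 h by between -0.29 and 0.41. GAPDH, often used as a loading reference, showed a disagreement between probes: the 2 brighter ones differed by -0.07 to 0.16, while the third, with 5976, 3429 and 3948 in KY170R and 7678, 4690 and 5663 in KY170, fell by 0.76 at 8 h (adjusted p = 0.00487) and 0.52 at 24 h (adjusted p = 0.0254). PGK1, the first ATP-generating enzyme, had 4955, 5559 and 7572 in KY170R and 4571.5, 4714 and 6836 in KY170. It was 1.51-fold higher at 24 h (adjusted p = 0.0118), and its dimmer second probe differed by 0.19 (adjusted p = 0.549).

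Enolase makes phosphoenolpyruvate. ENO1, the general form, ranged from 28544 to 35701 over the 6 arrays. ENO2, the neuronal form that is also a hypoxia-induced gene, had 677.4, 142.1 and 429.0 in KY170R and 924.8, 213.4 and 452.0 in KY170. Its 8 h values lay far below all others, in both lines. ENO2 fell by 2.18 at 8 h on the log2 scale (SE 0.25, adjusted p = 0.000281), the lowest difference of any of the 30 members at that time, and by 0.85 at 24 h (adjusted p = 0.0232). From 8 to 24 h it rose by 1.34 (adjusted p = 0.0178).

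PKM encodes the pyruvate kinase of most dividing cells. Its brightest probe had 11227, 12596 and 7771 in KY170R and 9836, 11024 and 7199 in KY170. The 24 h value was the lowest in each line. PKM fell by 0.49 at 24 h against 0 h (adjusted p = 0.0177) and by 0.66 against 8 h (adjusted p = 0.0236), and its other 2 probes fell by 1.11 and 1.06 between 8 and 24 h (adjusted p = 0.0114 and 0.0202). The third probe was not called at 24 h against 0 h (-0.22, adjusted p = 0.461) and rose by 0.84 at 8 h (adjusted p = 0.013), where the brightest differed by 0.17 (adjusted p = 0.446).

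Pyruvate is reduced to lactate by LDHA, the dehydrogenase subunit of muscle and of many tumors. LDHA had 14718, 24290 and 25072 in KY170R and 17189, 22877 and 24006 in KY170, with all later values above both 0 h values. It was 1.48-fold higher at 8 h (adjusted p = 0.00767) and 1.54-fold higher at 24 h (adjusted p = 0.0037). LDHB, whose values are given above, differed by 0.45 at 8 h (adjusted p = 0.172) and rose by 0.84 at 24 h (adjusted p = 0.0141), by 1.14 in KY170R and 0.54 in KY170. Its 24 h value in KY170R was still below its 0 h value in KY170.

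Among the enzymes that set flux, PFKFB4 was the most changed. The PFKFB enzymes make and remove fructose 2,6-bisphosphate, the allosteric activator of phosphofructokinase. PFKFB4 had 349, 1095 and 1382 in KY170R and 282, 1093 and 976.4 in KY170, so that every later value was above both 0 h values. It was 3.49-fold higher at 8 h (adjusted p = 0.00042) and 3.70-fold higher at 24 h (adjusted p = 0.000269). PFKFB3, its relative with the highest kinase activity, had 2775, 3054 and 4362 in KY170R and 2599, 2799 and 2826 in KY170 and was not called, with 0.12 at 8 h and 0.39 at 24 h. PDK1, the kinase that shuts off pyruvate dehydrogenase, had 88.2, 60.5 and 39.0 in KY170R and 62.5, 64.9 and 28.4 in KY170. It fell by 1.16 at 24 h (adjusted p = 0.0383), by -1.18 and -1.14 in KY170R and KY170.

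The classical targets of HIF outside glycolysis did not move as a block. VEGFA, the main angiogenic growth factor, had 192.6, 118.7 and 561 in KY170R and 346.6, 138.3 and 545.7 in KY170. Its 8 h values were the lowest and its 24 h values the highest in each line. VEGFA fell by 1.01 at 8 h (adjusted p = 0.0248) and was 2.14-fold higher at 24 h than at 0 h (adjusted p = 0.0137), and a second probe was called lower at 8 h (adjusted p = 0.0245) and higher at 24 h, by 1.27 (adjusted p = 0.0421). BNIP3, a mitochondrial protein that promotes mitophagy, had 2019, 2410.5 and 5625 in KY170R and 4623, 2739 and 6316 in KY170. Both 24 h values exceeded both 0 h values, with a rise of 0.96 (adjusted p = 0.0108), while the 8 h differences were 0.26 in KY170R and -0.76 in KY170 and the mean was not called.

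NDRG1 had 373.1, 161.5 and 756 in KY170R and 544.2, 82.8 and 211.3 in KY170. It fell by 1.96 at 8 h (adjusted p = 0.0157), with differences of -1.21 in KY170R and -2.72 in KY170. At 24 h the lines lay on opposite sides of their 0 h values, with 1.02 in KY170R and -1.36 in KY170. The interaction test above pools 8 and 24 h, so this split at 24 h was not tested. ADM had 2431.5, 1844 and 4931 in KY170R and 4251, 2464 and 2946 in KY170 and was called at neither time. ANKRD37, an ankyrin-repeat gene induced in hypoxia, ranged from 239.6 to 550 and was not called.

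P4HA1, the prolyl hydroxylase subunit needed for collagen folding, had 262.9, 95.1 and 38.9 in KY170R and 226.2, 151.3 and 67.4 in KY170, a decline at each step in both lines. It was 4.76-fold lower at 24 h than at 0 h (adjusted p = 0.000869). A second P4HA1 probe, above the background limit on 4 of 6 arrays, pointed the other way, with 4.49, 31.2 and 96.9 in KY170R and 52.1, 6.57 and 82.7 in KY170 and a difference of 2.55 (adjusted p = 0.181). The mean of both probes differed by 0.15 (adjusted p = 0.858), so no direction for the gene as a whole can be given. KDM3A, a histone demethylase induced by HIF, exceeded the background limit only on the 24 h arrays, at 14.8 in KY170R and 15.7 in KY170, barely above that limit of 13.75.

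HIF1A, the oxygen-regulated alpha subunit itself, had the largest rise of the members at 24 h. Its intensity was 105.9, 221 and 651 in KY170R and 147.7, 255 and 498 in KY170. It rose at each step in both lines, by 0.93 at 8 h (SE 0.29, adjusted p = 0.036) and by 2.19 at 24 h (adjusted p = 0.000394), a 4.55-fold difference. All 3 of its probes were called higher at 24 h, with 2.05 for the second (adjusted p = 0.00552) and 3.17 for the third (adjusted p = 0.0369), although the third exceeded the background limit on only 2 of 6 arrays. At 8 h only the brightest probe was called, so the 8 h call rests on 1 of its probes. Another, above the background limit on all 6 arrays, differed by 0.91 at 8 h (adjusted p = 0.175). That probe had 17.3 and 59.0 in KY170R and 44.2 and 45.8 in KY170 at 0 and 8 h. HIF1A is regulated mainly through protein stability, which arrays do not measure. EGLN1, the main oxygen-sensing hydroxylase, had 324.7, 179.4 and 200.6 in KY170R and 366.6, 190.9 and 270.9 in KY170, and fell by 0.90 at 8 h (adjusted p = 0.0279). EGLN3, a hydroxylase that HIF induces in many cells, did not exceed the background limit on any of the 6 arrays, its highest value being 6.41.

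The 24 h arrays were also set directly against the 8 h arrays, a comparison that leaves out the 0 h arrays. Here 24 of 30 members had positive differences, against 46.5% of all tested probes, and the median was 0.30, against -0.07 over all probes. In 19 of 30 members the later array was higher in both lines, against 31.9% of probes, in 6 it was lower in both, against 37.4%, and in 14 of 30 both 24 h values lay above both 8 h values, against 24.0% of probes, and in 5 below both, against 29.2%. By the test 5 members were called, when 6.52% of probes were called: ENO2, VEGFA, BNIP3 and HIF1A higher, against 3.53% of probes, and PKM lower, against 2.99%. Among the brightest 6100 tested probes, however, 2 of 21 members were called, against 13.3% of those probes. VEGFA was 4.32-fold higher at 24 h than at 8 h (adjusted p = 0.00776), by 2.24 on the log2 scale in KY170R and 1.98 in KY170. BNIP3 rose by 1.21 (adjusted p = 0.0208), by 1.22 and 1.21 in KY170R and KY170. HIF1A rose by 1.26 (adjusted p = 0.0328) on its brightest probe, and no other HIF1A probe was called (adjusted p = 0.166 and 0.279). NDRG1 (1.79, adjusted p = 0.0636) and SLC2A3 (1.31, adjusted p = 0.0677) had differences of like size that were not called. With 1 prior variance, with values raised to the background limit, or without the line term 0 members were called in this comparison. Of all 24401 tested probes 0, 0 and 2 were called at these settings, so the 0 says little about the members.

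For 10 members at least 2 probes exceeded the background limit on all 6 arrays, which gave 22 probes to set side by side. The 2 such probes of VEGFA were called in the same direction in all 3 time comparisons. The probes of HK2, ALDOA, GAPDH, PGK1 and PKM did not receive the same calls, as given above. PGAM1 was called at 24 h by its second probe (0.52, adjusted p = 0.0285) and not by its brightest (0.41, adjusted p = 0.0571). HIF1A was called at 8 h and for 24 h against 8 h by its brightest probe only. Its other probe above the background limit on all 6 arrays was called in neither (adjusted p = 0.175 and 0.166). The probes of TPI1 and PFKFB3 were called in no time comparison.

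**Figure D4:**
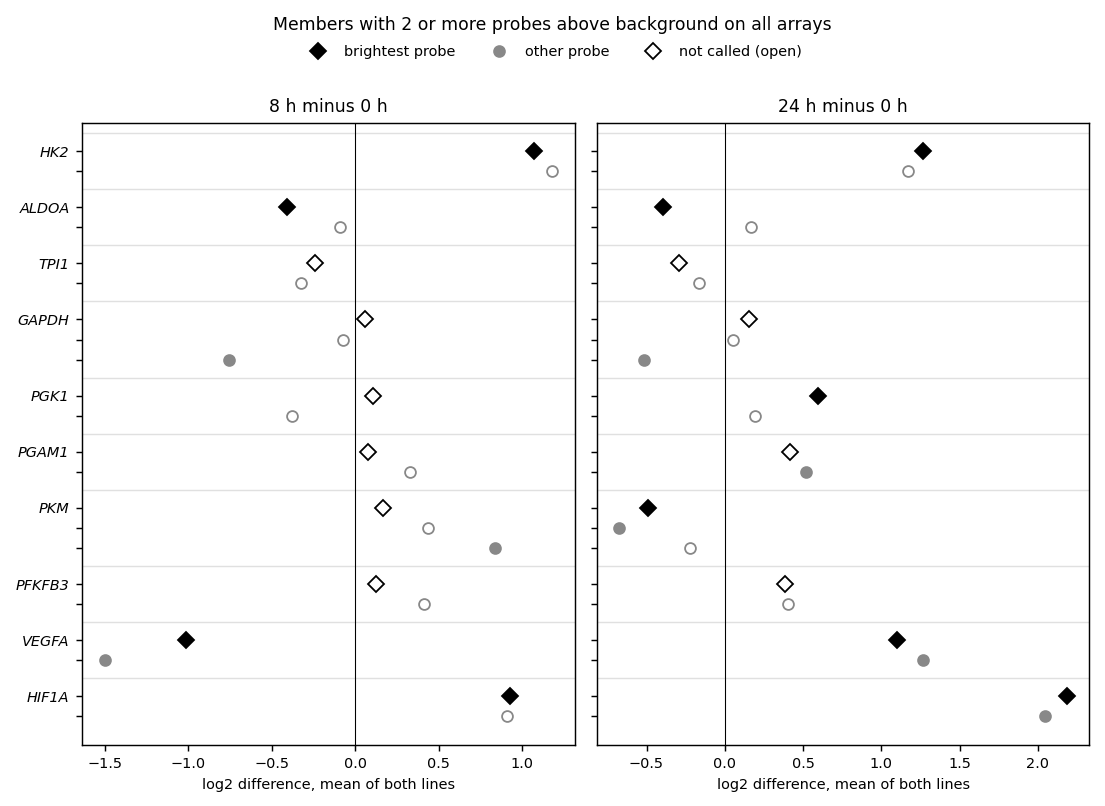
Horizontal axes give the log2 difference from 0 h, as the mean of both lines, at 8 h and at 24 h for the 22 probes, 1 per row and grouped by their 10 genes, with diamonds for the brightest probe, circles for the others and filled marks for called differences. The probes of VEGFA and HIF1A lie on the same side of 0 at each time, and those of GAPDH do not share a call.

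HIF binds the core RCGTG, that is ACGTG or GCGTG. RefSeq promoter windows (GRCh38.p14, 250 bases before to 50 after the start site) were found for 29 of the 34 genes, as 53 windows, some overlapping. Either core was present on either strand in 36 of the 53 windows (67.9%), against 48.4% of 35097 windows of all genes. Promoters of these genes are rich in GC. A GC content of 56.7 to 71.7% is the interquartile range of the member windows, and among 13855 windows of all genes within it the share was 62.2%. The member share within that range was not computed, so the 67.9% and the 62.2% are not on like sets. Counted by gene, 27 of the 29 members had a match in at least 1 window, against 52.4% of 27305 genes, a count in which genes with more windows and richer in GC have more chances of a match. ACGTG occurred in 39.6% of the member windows and 21.4% of all, GCGTG in 41.5% and 36.5%, and the E-box CACGTG, which holds ACGTG on both strands and is also bound by other factors, in 15.1% and 7.25%. A match is a run of letters and not a bound site.

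The 250 bases before the start site are shown for 3 genes that were called higher and 2 that were called lower, so that the motif can be seen in its surroundings, with both cores in capitals on whichever strand they lie (CACGT and CACGC are their reverse complements). They are LDHA (chr11:18394313-18394562, plus strand), BNIP3 (chr10:131981924-131982173, minus strand), PFKFB4 (chr3:48556804-48557053, minus strand), ENO2 (chr12:6914330-6914579, plus strand) and ALDOC (chr17:28576896-28577145, minus strand), each written 5′ to 3′ along its gene.
LDHA: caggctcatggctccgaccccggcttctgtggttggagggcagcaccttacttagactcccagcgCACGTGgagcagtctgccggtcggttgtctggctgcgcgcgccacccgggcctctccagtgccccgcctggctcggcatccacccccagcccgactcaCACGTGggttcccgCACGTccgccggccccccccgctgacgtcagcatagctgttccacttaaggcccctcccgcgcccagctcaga
BNIP3: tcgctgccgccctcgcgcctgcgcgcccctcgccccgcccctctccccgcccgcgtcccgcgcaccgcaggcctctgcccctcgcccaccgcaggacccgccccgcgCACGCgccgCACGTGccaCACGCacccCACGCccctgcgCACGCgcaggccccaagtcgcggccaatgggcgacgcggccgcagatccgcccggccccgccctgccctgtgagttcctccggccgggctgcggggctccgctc
PFKFB4: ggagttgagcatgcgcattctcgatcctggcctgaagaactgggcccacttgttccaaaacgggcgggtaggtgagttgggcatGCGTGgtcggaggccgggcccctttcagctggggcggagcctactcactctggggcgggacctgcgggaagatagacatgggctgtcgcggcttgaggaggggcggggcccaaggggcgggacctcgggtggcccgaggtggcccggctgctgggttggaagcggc
ENO2: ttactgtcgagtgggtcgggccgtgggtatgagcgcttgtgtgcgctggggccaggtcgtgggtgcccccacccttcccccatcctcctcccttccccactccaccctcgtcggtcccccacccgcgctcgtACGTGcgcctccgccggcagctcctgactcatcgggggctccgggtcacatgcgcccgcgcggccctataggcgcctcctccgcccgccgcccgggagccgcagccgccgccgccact
ALDOC: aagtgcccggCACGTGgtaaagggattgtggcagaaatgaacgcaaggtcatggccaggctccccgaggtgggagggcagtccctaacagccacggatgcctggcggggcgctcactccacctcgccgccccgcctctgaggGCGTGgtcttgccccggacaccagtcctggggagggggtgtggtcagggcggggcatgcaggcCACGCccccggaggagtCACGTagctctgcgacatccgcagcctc

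The stretch of LDHA holds 5 matches, of BNIP3 6, of PFKFB4 1, of ENO2 1 and of ALDOC 5, each E-box counted on both strands. Where a gene had more than 1 window, the one with the most matches was shown. For LDHA another window (chr11:18396101-18396400) holds 1 match. Against 0 h, BNIP3, with 6, rose at 24 h, and LDHA, with 5, and PFKFB4, with 1, rose at both times. ALDOC, with 5, fell at 8 h, and ENO2, with 1, fell at both times. Whether the number of matches goes with the direction was not tested, and these few chosen promoters cannot decide it.

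A list of 34 other genes known as HIF targets, 29 of them tested was counted in the same way. At 8 h 4 were called higher and 8 lower, at 24 h 10 higher and 3 lower, and between 8 and 24 h 6 higher and 0 lower. Over all tested probes the shares called higher and lower were 15.2 and 13.9% at 8 h, 19.2 and 17.4% at 24 h, and 3.53 and 2.99% between 8 and 24 h. The median of the list between 8 and 24 h was 0.49, against -0.07 over all tested probes. Those higher at 24 h included BNIP3L, the mitophagy relative of BNIP3 (1.60, adjusted p = 0.000907), PLOD2, a collagen lysyl hydroxylase (1.82, adjusted p = 0.000126), and WSB1, a ubiquitin ligase subunit (1.23, adjusted p = 0.00631). HILPDA, a lipid droplet protein strongly induced in hypoxia, went the other way and fell by 1.34 at 8 h (adjusted p = 0.0133) and 1.40 at 24 h (adjusted p = 0.0088). DDIT4, an inhibitor of mTOR signalling, fell at 8 h (adjusted p = 0.0411) and rose between 8 and 24 h (adjusted p = 0.0345). Between the lines 1 of the 29 was called, AK4, a mitochondrial adenylate kinase, when 1.82% of all tested probes were called, 0.820% lower. AK4 had 845.1, 2260 and 2832 in KY170R and 2000 (0 h), 3383 and 4839 in KY170, and was lower in KY170R by -0.87 on the log2 scale (adjusted p = 0.0301, lower in 3 of 3 pairs).

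Of 14 genes of the HIF machinery other than the members, 13 were tested, with 3 called higher and 4 lower at 8 h, against 15.2 and 13.9% of all tested probes, and 2 higher and 4 lower at 24 h, against 19.2 and 17.4%. The probe of ARNT, the constitutive partner of HIF alpha, did not exceed the background limit on any array, so its level had only a bound. EPAS1, the second HIF alpha subunit, rose by 0.86 at 24 h (adjusted p = 0.00231). CUL2, the scaffold of the ubiquitin ligase that removes HIF alpha, rose by 1.68 at 8 h and 1.84 at 24 h (adjusted p = 0.000481 and 0.000259), while ELOB and RBX1, small subunits of the same ligase, fell by 1.21 and 1.44 at 24 h (adjusted p = 0.00028 and 0.00441).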

How the data were processed

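Total RNA of 2 cell lines at 3 times was measured on 6 one-colour arrays. The authors deposited probe intensity on a linear scale from Illumina BeadStudio, background-subtracted and normalized between arrays by a method that, like the BeadStudio version, no source used here names. Between 29.896 and 29.928% of the values on an array were below 0. Of 48803 probes, 27578 had 1 gene symbol in the platform annotation, 13 several and 21212 none, and only the first were named. No value column was left unused (0). The number of arrays limits the precision.

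Intensities were raised to a floor of 1 and turned into log2. Probes in the upper 50% by mean log2 were tested, 24401 in all, which is a mean log2 of at least 2.254. The test was limma 3.58.1 in R 4.3.3 (lmFit, then eBayes with trend and robust, two-sided) with time point and line as terms, 2 residual and a median of 8.66 prior degrees of freedom, and Benjamini-Hochberg adjustment over all tested probes, with calls under 0.05. The script was tested on simulated arrays. The study's methods name a score of the Illumina software, not computed here, and a t-test. Line differences are KY170R minus KY170, and time differences are the later minus the earlier time.

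By the naming rule each of the 32 members with a named probe was given by its brightest probe. Values on every array are given for members called in both comparisons with 0 h and for isoenzyme pairs, and for other members on which a result turned, the last chosen after their values were seen. The members and the wider lists were chosen with earlier results of these data known. Alternatives were the prior, the floor, the normalization, the filter, the probe that stands for a gene, the t-test of the methods, models without the line or time term and arrays left out. The stricter floor of 24.53 and the count over every tested probe were added after the data were seen.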

Additional observations from a re-analysis of the deposited data

How the results depend on the processing

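Quantile normalization, median centring, the upper 30% of probes and the mean of a gene's probes left each count of members called within 1.5 times its main value, and the 2 scalings shifted the median of all probes by less than 0.1. Counts over time depended on the prior and on the treatment of dim values. The counts of 15 at 8 h, 15 at 24 h and 5 for 24 h against 8 h became 0, 0 and 0 with 1 prior variance for all probes, 3, 7 and 0 when values were raised to the background limit, 0, 0 and 0 with the stricter floor, 1, 1 and 0 with no filter on dim probes, and 0, 0 and 0 by the t-test of the methods after Benjamini-Hochberg adjustment. At its own threshold, unadjusted, that t-test gave 8 and 9 members at 8 and 24 h. Without the line term the counts were 8 at 8 h and 0 for 24 h against 8 h, when 19.8 and 0.00820% of all tested probes were called. In the order 8 h, 24 h and 24 h against 8 h, 0 of all tested probes were called with 1 prior variance. With values raised to the background limit 10.7, 16.2 and 0% were called, and with no filter 0.713, 1.08 and 0%. Such shares are not given here for the stricter floor and the t-test. Over every tested probe of the members, 47 in all, 8 were called for 24 h against 8 h. The cause of these shifts was not tested.

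P4HA1 at 24 h turned to 0.15 when its probes were averaged (adjusted p = 0.858), since its second probe differed in the other direction. The line comparison gave between 0 and 5 members when 1 time point was left out, with 5 without the 24 h arrays and 1 without the 0 h arrays. The median member difference within 1 line alone was -0.35 to -0.33 at 8 h, and 0.17 to 0.29 for 24 h against 8 h. At 24 h against 0 h it lay on opposite sides of 0, at 0.03 in KY170R and -0.30 in KY170. Of the values for single members, 196 kept their side of the threshold and direction under an alternative with a test, 70 kept the direction within 1 line, where no test exists, 201 kept the direction and lost the call, 1 gained it (LDHB without the 24 h arrays) and 1 turned round. The labels give no replicate numbers to block on. The line test was paired by time point, which was a term of the model, and without that term it also called 0 members. Dim probes have only a bound, and the 6 arrays give no spread within a group.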

Other observations

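Genes that branch off glycolysis were counted in the same fit. In glycogen metabolism 3 of 8 tested genes rose and 2 fell at each later time, when 15.2% of all tested probes were called higher and 13.9% lower at 8 h, and 19.2 and 17.4% at 24 h. UGP2, which makes the UDP-glucose used for glycogen, rose by 1.29 at 8 h and 1.93 at 24 h on the log2 scale (adjusted p = 0.000752 and 0.000117, limma). PGM2, a phosphopentomutase and phosphoglucomutase, rose by 1.37 and 2.24 (adjusted p = 0.00561 and 0.000365), and GBE1, the branching enzyme, rose by 1.52 at 24 h (adjusted p = 0.00103). GYS1, the muscle-type glycogen synthase, fell by 0.82 and 0.85 (adjusted p = 0.0284 and 0.0193).

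In the pentose phosphate pathway TKT, the transketolase that returns pentoses to glycolysis, was 1 of 7 tested genes and the only one of them called between the lines. Of all tested probes 1.82% were called between the lines, in either direction. TKT was higher in KY170R by 0.61 (adjusted p = 0.0378, higher in 3 of 3 pairs). Of the 7 genes 1 rose and 3 fell at 8 h, against 15.2 and 13.9% of all tested probes, and 1 rose and 1 fell at 24 h, against 19.2 and 17.4%. RPE, the epimerase of the same branch, rose by 1.45 at 8 h and 2.13 at 24 h (adjusted p = 0.000644 and 0.000109), while PGLS, of the oxidative branch, fell by 0.95 and 1.31 (adjusted p = 0.008 and 0.00116). Of 11 tested genes for pyruvate entry into mitochondria, 0 rose and 2 fell at 8 h, and 4 rose and 2 fell at 24 h, against the same shares of 15.2 and 13.9% at 8 h and 19.2 and 17.4% at 24 h. DLD, a subunit of the pyruvate dehydrogenase complex, rose by 1.88 at 24 h (adjusted p = 0.00129), and MPC2, a subunit of the mitochondrial pyruvate carrier, fell by 1.14 (adjusted p = 0.00142). TIGAR, a phosphatase that lowers fructose 2,6-bisphosphate, was among the other isoenzymes and transporters, where 2 of 13 rose and 3 fell at 8 h and 2 rose and 2 fell at 24 h, near those shares. TIGAR rose by 1.62 at 8 h and 1.14 at 24 h (adjusted p = 0.00127 and 0.00667).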
